A study of Rattus norvegicus with 8 samples.

Results

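The miR-34 family was followed in exosomes, small secreted vesicles, of rat cells from the intervertebral disc. The members were the 5 mature strands named rno-miR-34a-5p, rno-miR-34b-5p, rno-miR-34b-3p, rno-miR-34c-5p and rno-miR-34c-3p. They were picked by name among the 415 rat mature miRNA names of the deposited count table, which has 1512 rows in all, and each name had exactly 1 row. The vesicles came from nucleus pulposus progenitor cells (NPPC), which are less differentiated, with 4 small RNA libraries, and from nucleus pulposus cells (NPC), the main cells of the disc's gel-like core, with 4 more. No treatment, genotype, rat strain, age or passage is named in the labels, and the labels do not say whether replicates came from separate cultures or animals. The p-values below therefore reflect only how far these libraries scatter, and that scatter may be technical.

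miR-34a and the miR-34b/c pair are transcribed from separate genes whose promoters are bound by the tumour suppressor p53, and they are among the best known miRNA targets of p53. A miRNA finds its target mRNAs mainly through its seed, the bases near its 5′ end, and the 5p strands of this family repress cell cycle, survival and deacetylase genes such as Cdk6, Bcl2 and Sirt1. miR-34a is widely expressed and has been linked to senescence and apoptosis in cartilage and disc cells, while miR-34b/c are best known from testis, lung and ciliated epithelia.

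The mature sequences are shown because the seed defines the family and because near-identity between members bears on how reads could be assigned. They are RefSeq sequences on the GRCr8 assembly, 5′ to 3′, with bases 2 to 8, the seed, in capitals.
rno-miR-34a-5p: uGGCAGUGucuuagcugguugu
rno-miR-34b-5p: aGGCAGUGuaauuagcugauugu
rno-miR-34c-5p: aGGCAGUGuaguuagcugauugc
rno-miR-34b-3p: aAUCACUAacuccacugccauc
rno-miR-34c-3p: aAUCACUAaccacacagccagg
rno-miR-449a-5p: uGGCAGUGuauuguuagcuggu
The 3 5p strands carried the seed GGCAGUG, which miR-449a-5p, a paralogue and no member, also has. The 2 3p strands shared another seed, AUCACUA. On GRCr8, miR-34a-5p lies at chr5:165815971-165815992 on the plus strand, within the span of the long noncoding RNA gene LOC103692514. The miR-34b and miR-34c hairpins lie on the minus strand of chromosome 8, within the span of the protein-coding gene Hoatz and 441 bases apart. There miR-34b-5p spans chr8:60306657-60306679 and miR-34c-5p spans chr8:60306133-60306155.

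Mature miR-34b-5p and miR-34c-5p differ by the substitutions A11G and U23C, with positions counted from 1 at the 5′ end of miR-34b-5p. With 2 differing bases, the split of reads between these strands is uncertain. The deposited form of miR-34b-5p was not the RefSeq one: it begins 1 base further 5′ and ends earlier, so that the family's seed letters, in capitals below, fall at bases 3 to 9.
Deposited rno-miR-34b-5p form: taGGCAGTGtaattagctgatt
miR-34a-5p stood further off, with an edit distance of 4 to miR-34b-5p and 5 to miR-34c-5p.

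Library totals were 819845 to 1416940 counts in NPPC and 329011 to 681591 counts in NPC, so low members were measured less precisely in NPC. NPC replicate 1 stood apart: its TMM scaling factor was 1.83, against 0.835 to 1.03 in the other 7 libraries. Its deviations correlated with miRNA GC content at a Spearman rho of 0.856 over 278 rat miRNAs, against -0.622 to -0.0404 elsewhere. Deviations were taken from the mean of all 8 libraries, so NPC replicate 1 itself shifts the values of the others. All 4 cartilage and disc markers (miR-140 and miR-455 strands) were detected, with summed levels of 9096 to 9801 CPM in NPPC and 11139 to 14503 CPM in NPC, where CPM stands for counts-per-million after TMM scaling. These sums did not overlap and were lower in NPPC, but they were mostly miR-140-3p, at 7585 ± 413 CPM in NPPC and 10877 ± 1882 CPM in NPC (SD, n = 4 each). Of the 4 markers 2 had positive and 2 negative log2 fold changes, with a median of 0.15, and their part in the miR-34 values was not tested. No miRNA marker of NPPC was used. In vesicles from mixed cells, a difference in the number of contributing cells or vesicles and a difference in miRNA per vesicle cannot be told apart.

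The family was unevenly filled, with the same leading strands in both groups. miR-34c-5p made up 84.8 ± 2.38% of miR-34 counts in NPPC exosomes and 91.4 ± 1.03% in NPC exosomes (SD, n = 4 each). It ranked 44th by mean count among the 415 rat miRNA names, ahead of miR-34a-5p at 118, miR-34b-3p at 203, miR-34c-3p at 262 and miR-34b-5p at 354. The order miR-34c-5p above miR-34a-5p above miR-34b-3p held in 8 of 8 libraries, and miR-34b-3p exceeded miR-34c-3p in 8 of 8. The order of the lowest pair was not stable, since miR-34b-5p exceeded miR-34c-3p in NPPC replicate 1 and both were listed at 0 in NPC replicate 2. These levels are counts of strands of nearly equal length, and the capture efficiency of each sequence was not measured. All 5 members together amounted to 2576 ± 459 CPM in NPPC and 3440 ± 1136 CPM in NPC without TMM scaling (SD, n = 4 each), with overlapping ranges of 2281 to 3255 and 2502 to 5085.

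miR-34a-5p, the single counted strand of the 34a locus among the members, was the member with the most separate groups after TMM scaling. Its counts were 277, 311, 423 and 417 in NPPC replicates 1 to 4, against 105, 155, 146 and 74 in NPC replicates 1 to 4. Scaled, these were 350, 325, 346 and 382 CPM in NPPC and 175, 245, 253 and 136 CPM in NPC. On this TMM scale every NPPC library lay above every NPC library, and the NPC libraries scattered more widely. The means were 350 ± 23.5 CPM in NPPC and 202 ± 56.2 CPM in NPC (SD, n = 4 each), a log2 fold change of 0.79 ± 0.24 (SE) or 1.73-fold. By edgeR's quasi-likelihood test the unadjusted p was 0.0106 and the Benjamini-Hochberg adjusted p over 444 features was 0.293, so the difference did not pass the threshold of 0.05. The fold change was 0.69 on the log2 scale without NPC replicate 1 and 0.81 with a GC correction, so it was of similar size without that library. With 1 library left out, the lowest log2 fold change was 0.60, without NPC replicate 4.

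Scaling moved this value more than any single library did. With libraries scaled by their total counts, the miR-34a-5p log2 fold change was 0.43 with an unadjusted p of 0.196 by edgeR, while the median of all features moved to -0.35, against 0.05 with TMM. Upper-quartile factors gave 0.59 with an unadjusted p of 0.0972 by edgeR and a median of -0.17. Without TMM scaling the miR-34a-5p groups overlapped, since NPC replicate 1, at 319 CPM, lay inside the NPPC range of 285 to 338 CPM. NPC replicates 2 to 4, at 251, 214 and 138 CPM, stayed below that range. The sign of the fold change was positive under every scaling tried.

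The strands of the 34b/c locus had log2 fold changes of both signs, and a difference between miR-34b-3p and miR-34c-5p was not tested. miR-34c-5p, its dominant strand, had 2350, 2103, 2920 and 2503 counts in NPPC, against 1541, 1641, 2019 and 1231 in NPC. On the CPM scale it had 2969, 2195, 2386 and 2290 in NPPC and 2575, 2592, 3495 and 2263 in NPC. The groups overlapped, with NPC replicate 3 highest of the 8 libraries and NPPC replicate 2 lowest. Its means were 2460 ± 348 CPM in NPPC and 2732 ± 531 CPM in NPC (SD, n = 4 each), a log2 fold change of -0.15 ± 0.18 (SE), with an adjusted p of 0.689 by edgeR's quasi-likelihood test. The value was -0.06 without NPC replicate 3 and -0.52 with total count scaling.

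miR-34b-3p, the strand by which miR-34b was mainly seen here, had 40.4, 44.9, 74.4 and 90.6 CPM in NPPC and 30.1, 47.4, 38.1 and 40.5 CPM in NPC. NPPC replicates 3 and 4 stood above all NPC libraries, and replicates 1 and 2 lay among them. The means were 62.6 ± 24.0 CPM in NPPC and 39.0 ± 7.14 CPM in NPC (SD, n = 4 each), a log2 fold change of 0.68 ± 0.35 (SE) with an adjusted p of 0.432 by edgeR. The value was 0.40 without NPPC replicate 4, 0.37 with a GC correction and 0.32 with total count scaling.

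Both remaining strands were near the limit of detection. miR-34c-3p, the partner strand of the miR-34c hairpin, had 0, 30, 33 and 21 counts in NPPC and 9, 0, 8 and 12 counts in NPC. Its log2 fold change was 0.62 ± 1.17 (SE), with an adjusted p of 0.807 by edgeR, an error larger than the value. miR-34b-5p was listed with 10 counts in NPPC replicate 1, 6 counts in NPC replicate 4 and 0 in the other 6 libraries, and it failed the expression filter. The smallest value above 0 was 1.25 in the whole table and 6 among the members. How many reads a 0 may hide is not known, and no upper limit is given for it.

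**Figure D1:**
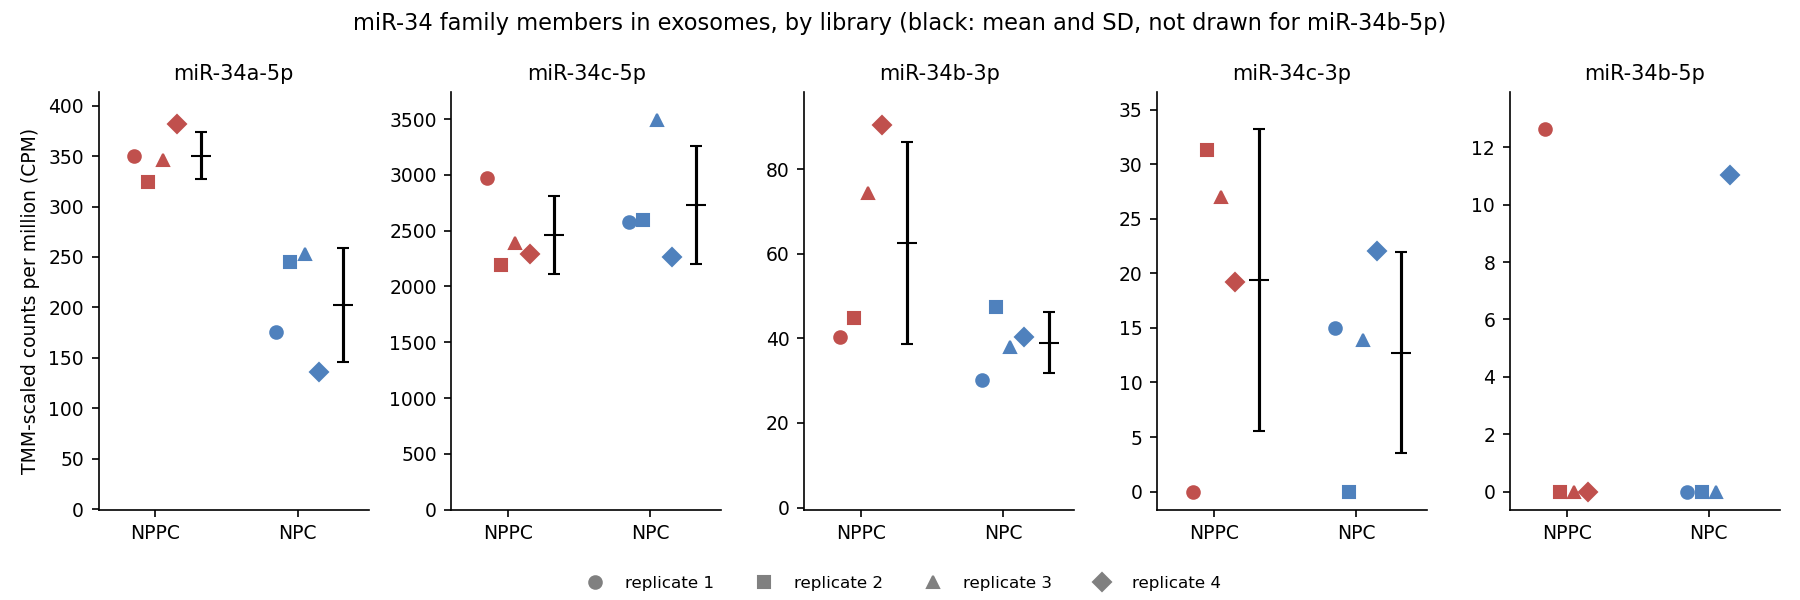
Levels of the 5 miR-34 members in TMM-scaled CPM (vertical axis, a separate range per panel) for 4 NPPC libraries (red) and 4 NPC libraries (blue), with the replicate shown by symbol and the mean and SD in black. miR-34a-5p lies between 325 and 382 CPM in NPPC and between 136 and 253 CPM in NPC, while the other members overlap between groups.

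By edgeR's quasi-likelihood test with Benjamini-Hochberg adjustment, 0 of the 4 members tested were called, as were 0% of the 444 features. Without adjustment, p was under 0.05 for 61 features, or 13.7%, with 28 (6.31%) higher and 33 (7.43%) lower in NPPC. Total count scaling made that split 11 higher and 56 lower. Among the members, miR-34a-5p alone was past that unadjusted mark, 1 of 4. It was also the 1 member whose groups did not overlap in TMM-scaled CPM. On that scale 8.33% of all features did not overlap in that direction and 5.41% in the opposite one. DESeq2's Wald test called 10 features and limma-voom 1, none of them members. The members' median log2 fold change was 0.65 with 3 positive and 1 negative, against a median of 0.05 over all features tested and 0.30 over the 278 rat miRNA names tested, of which 192 were positive.

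The loci were set against each other within each library, a comparison that library scaling does not touch. miR-34a-5p counts per 100 counts of the 34b/c strands were 11.6, 14.3, 13.9 and 15.9 in NPPC replicates 1 to 4, against 6.70, 9.28, 7.13 and 5.82 in NPC replicates 1 to 4. Every NPPC ratio lay above every NPC ratio. NPC replicate 1 fell inside the range of the other NPC libraries, although it stood apart in scaling and GC content. As a share of all miR-34 counts, miR-34a-5p made up 12.2 ± 1.38% in NPPC and 6.73 ± 1.27% in NPC (SD, n = 4 each). The nearest libraries were NPPC replicate 1, at 10.4% with a 95% Wilson interval of 9.28 to 11.6%, and NPC replicate 2, at 8.49% with an interval of 7.30 to 9.86%, and these intervals, which cover counting error only, overlap.

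The mean log2 ratio of miR-34a-5p to the 34b/c sum, with a pseudocount of 0.5, was -2.85 ± 0.19 in NPPC and -3.80 ± 0.28 in NPC (SD, n = 4 each). The difference of 0.95, or 1.94-fold, had a two-sided exact permutation p of 0.0286, the smallest that the 70 arrangements can give. Adjusted by Benjamini-Hochberg over the 2 ratios tested, the exact permutation p was 0.0571, which misses the threshold of 0.05. Leaving out any 1 library gave differences from 0.86 to 1.08, and without NPC replicate 1 the difference was 0.92. The second ratio tested was miR-34c-3p to miR-34c-5p. It differed by 0.48 on the log2 scale, with an exact permutation p of 0.629 and the same value after adjustment, and it rests on the pseudocount in the 2 libraries where miR-34c-3p was listed at 0. miR-34b-5p was listed above 0 in too few libraries for a ratio of the miR-34b strands.

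**Figure D2:**
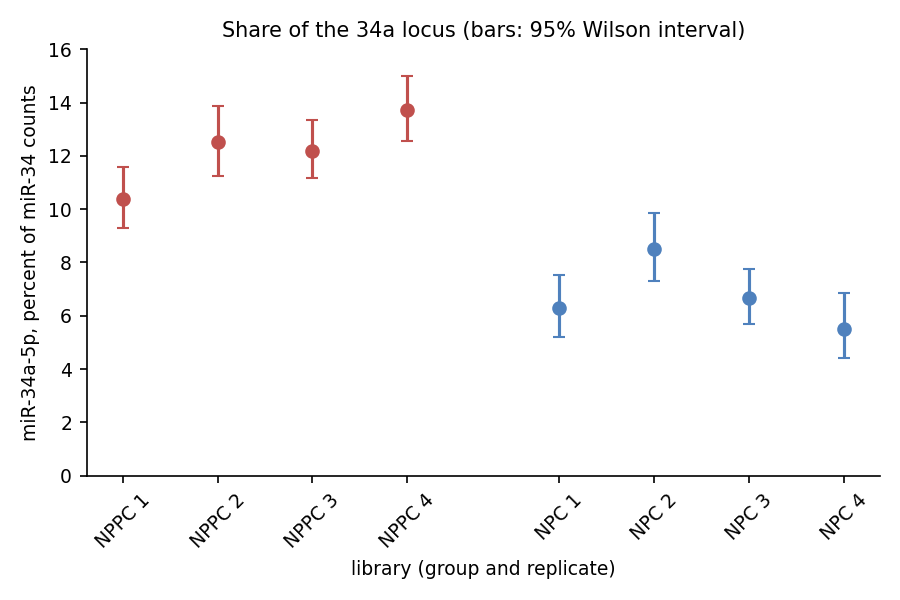
Percent of all miR-34 counts that belonged to miR-34a-5p in each library, with NPPC in red, NPC in blue and bars for the 95% Wilson interval. The 4 NPPC libraries lie between 10.4% and 13.7%, above the 4 NPC libraries at 5.50% to 8.49%.

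Within the 34b/c locus the miR-34b share varied widely between NPPC libraries. miR-34b-3p counts per 1000 miR-34c-5p counts were 13.6, 20.4, 31.2 and 39.6 in NPPC and 11.7, 18.3, 10.9 and 17.9 in NPC. NPPC replicates 3 and 4 were highest of the 8 libraries, and the groups overlapped through NPPC replicate 1. The means were 26.2 ± 11.5 in NPPC and 14.7 ± 3.94 in NPC (SD, n = 4 each), and this ratio was not tested. miR-34c-5p counts per miR-34a-5p count averaged 7.04 ± 1.04 in NPPC and 13.9 ± 2.52 in NPC (SD, n = 4 each).

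Each member's profile over the 8 libraries was compared with those of the other 277 rat miRNA names tested, by the root mean square difference of log2 CPM centred on each miRNA's own mean. The profiles most like miR-34a-5p were those of miR-16-5p at 0.24, miR-17-5p at 0.25 and miR-300-3p at 0.25, against a median of 0.67 over all 277. Within the family, miR-34b-3p was at rank 30 of 277 for miR-34a-5p, miR-34c-5p at rank 76 and miR-34c-3p at rank 261. The profiles nearest to miR-34c-5p were those of miR-99b-3p, miR-106b-3p and miR-99b-5p, at 0.14, 0.15 and 0.17, and those nearest to miR-34b-3p were miR-23b-3p, let-7b-5p and miR-132-5p, at 0.28, 0.30 and 0.30. For miR-34c-3p they were miR-326-3p, let-7b-3p and miR-296-5p, at 0.92, 1.01 and 1.13. These are descriptions over libraries that share depth and scaling, and no test was attached to them.

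**Figure D3:**
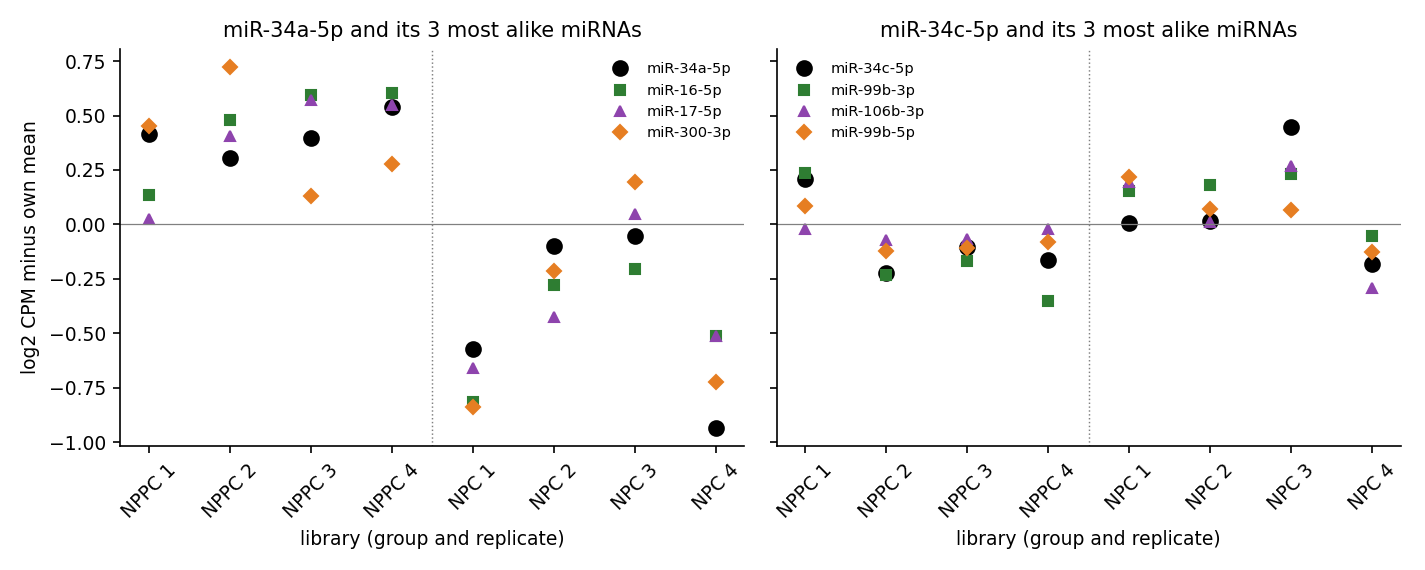
Log2 CPM minus each miRNA's own mean over the 8 libraries (vertical axis), for miR-34a-5p with its 3 nearest profiles (left) and miR-34c-5p with its 3 nearest profiles (right), NPPC libraries left of NPC libraries. All 4 miR-34a-5p points are above 0 in NPPC and below 0 in NPC, whereas miR-34c-5p has points on both sides of 0 in each group.

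Other miRNAs tied to p53 were listed by role: those that p53 induces, those whose processing by Drosha it promotes, and those that repress p53 itself. These roles come mainly from work in human and mouse cells. Of 17 listed names 15 were in the table under rat names and 12 were tested. Of these 12, 6 had positive and 6 negative log2 fold changes, with a median of 0.04. By edgeR's test 0 of the 12 were called, and 2 had an unadjusted p under 0.05, both higher in NPPC, where 6.31% of all features were so (13.7% in either direction). In TMM-scaled CPM, groups did not overlap for 4, all higher in NPPC, where 8.33% of all features were higher and 5.41% lower without overlap.

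Of the p53-induced miRNAs, 5 were tested, with 2 positive and 3 negative values. miR-107-3p, a repressor of angiogenic and cell cycle genes, averaged 845 ± 52.0 CPM in NPPC and 649 ± 138 CPM in NPC, a log2 fold change of 0.38 ± 0.19 (SE). That value was 0.05 with total count scaling, 0.16 with rat names only and 0.22 with upper-quartile factors or without NPC replicate 1. miR-22-3p, induced by p53 and targeting p21, averaged 17268 ± 1630 CPM in NPPC and 16232 ± 2377 CPM in NPC, with a log2 fold change of 0.09 ± 0.14 (SE). The clustered miR-192-5p and miR-194-5p had -0.66 ± 0.50 and -0.20 ± 0.40 (SE). miR-192-5p averaged 180 ± 16.6 CPM in NPPC and 285 ± 241 CPM in NPC, where replicate 3 alone reached 646 CPM, and without that library the log2 fold changes of miR-192-5p and miR-194-5p were 0.093 and 0.30. miR-200c-3p, an epithelial miRNA, had -0.01 ± 1.20 (SE), and 1.07 without NPC replicate 3. The edgeR adjusted p-values of these 5 ranged from 0.432 to 0.995. miR-215 was too low to test, and miR-141-3p had no rat row.

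Among the p53-processed miRNAs, miR-16-5p, which represses cyclins and Bcl2, averaged 1293 ± 185 CPM in NPPC and 691 ± 126 CPM in NPC (SD, n = 4 each). The groups did not overlap. Its log2 fold change of 0.90 ± 0.20 (SE) had an unadjusted p of 0.00179 and an adjusted p of 0.265 by edgeR, while DESeq2's Wald test gave an adjusted p of 0.00198. Over all 24 alternatives the adjusted p ranged from 0.00198 to 0.567. The log2 fold change was 0.55 with total count scaling and 0.58 with a GC correction, with adjusted p of 0.326 and 0.397 by edgeR. miR-145-5p, a smooth muscle and mesenchymal miRNA, averaged 774 ± 28.4 CPM in NPPC and 573 ± 59.3 CPM in NPC, again without overlap, with a log2 fold change of 0.43 ± 0.15 (SE) and an adjusted p of 0.293 by edgeR. Its cluster partner miR-143-3p had -0.07 ± 0.20 (SE). miR-15a-5p had no rat row.

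Among miRNAs that repress p53, miR-125b-5p averaged 42070 ± 892 CPM in NPPC and 35748 ± 3288 CPM in NPC (SD, n = 4 each), without overlap and with a log2 fold change of 0.23 ± 0.11 (SE). miR-25-3p, miR-30d-5p and miR-33-5p had -0.03 ± 0.12, 0.17 ± 0.12 and -1.01 ± 1.22 (SE). The edgeR adjusted p-values of these 4 ranged from 0.396 to 0.907. The rat-named rows of miR-504 and miR-380-5p were too low to test. A row with a bovine name (bta-miR-504), outside the lists, had 98.1 to 181 CPM in NPPC and 114 to 229 CPM in NPC. Its log2 fold change was -0.36 ± 0.33 (SE). Directions in these lists depended on scaling for several miRNAs: with total counts, miR-125b-5p, miR-145-5p, miR-22-3p and miR-30d-5p turned negative.

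**Figure D4:**
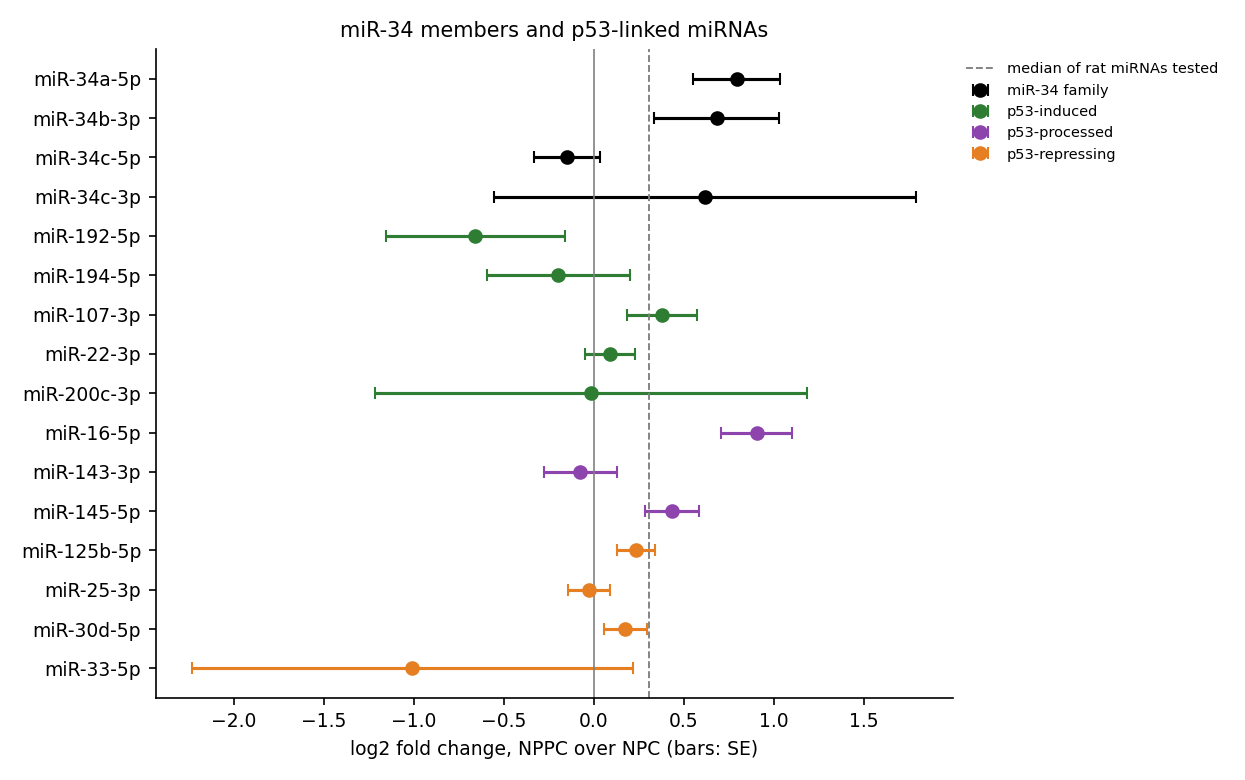
Log2 fold change of NPPC over NPC (horizontal axis) with its SE for the 4 miR-34 members tested and the 12 p53-linked miRNAs tested, coloured by list, with the dashed line at the median of 0.30 over rat miRNA names tested. miR-16-5p at 0.90 and miR-34a-5p at 0.79 lie farthest to the right, and miR-33-5p, miR-200c-3p and miR-34c-3p have the longest bars, at 1.22, 1.20 and 1.17.

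miR-449a-5p, which shares the family's seed and is known from ciliated epithelium, was too low to test. It had 10, 14, 9 and 10 counts in NPPC and 0, 0, 7 and 5 counts in NPC. Scaled, these were 12.6, 14.6, 7.35 and 9.15 CPM in NPPC and 0, 0, 12.1 and 9.19 CPM in NPC, overlapping between groups. Summed epithelial markers (5 of 6 in the table) were 84.6 to 187 CPM in NPPC and 43.4 to 128 CPM in NPC. Erythrocyte markers (4 of 4) were 209 to 1495 CPM in NPPC and 383 to 556 CPM in NPC, and leukocyte markers (3 of 4) were 86.0 to 181 CPM in NPPC and 16.7 to 204 CPM in NPC. Only rat-named rows entered these sums. The fourth leukocyte marker, miR-223-3p, was in the table under a mouse name (mmu-miR-223-3p), with 87.2, 63.7, 33.5 and 53.1 CPM in NPPC and 0, 120, 57.1 and 38.6 CPM in NPC, overlapping between groups. Mesenchymal markers (5 of 5) summed to 184304 to 201316 CPM in NPPC and 127820 to 220837 CPM in NPC, and the liver marker miR-122-5p was at 11.4 to 23.0 CPM in NPPC and 8.36 to 32.9 CPM in NPC. The groups overlapped in each of these sums, and no marker in the table was at 0 in all libraries. Whether they bear on the miR-34 values was not tested.

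**Figure D5:**
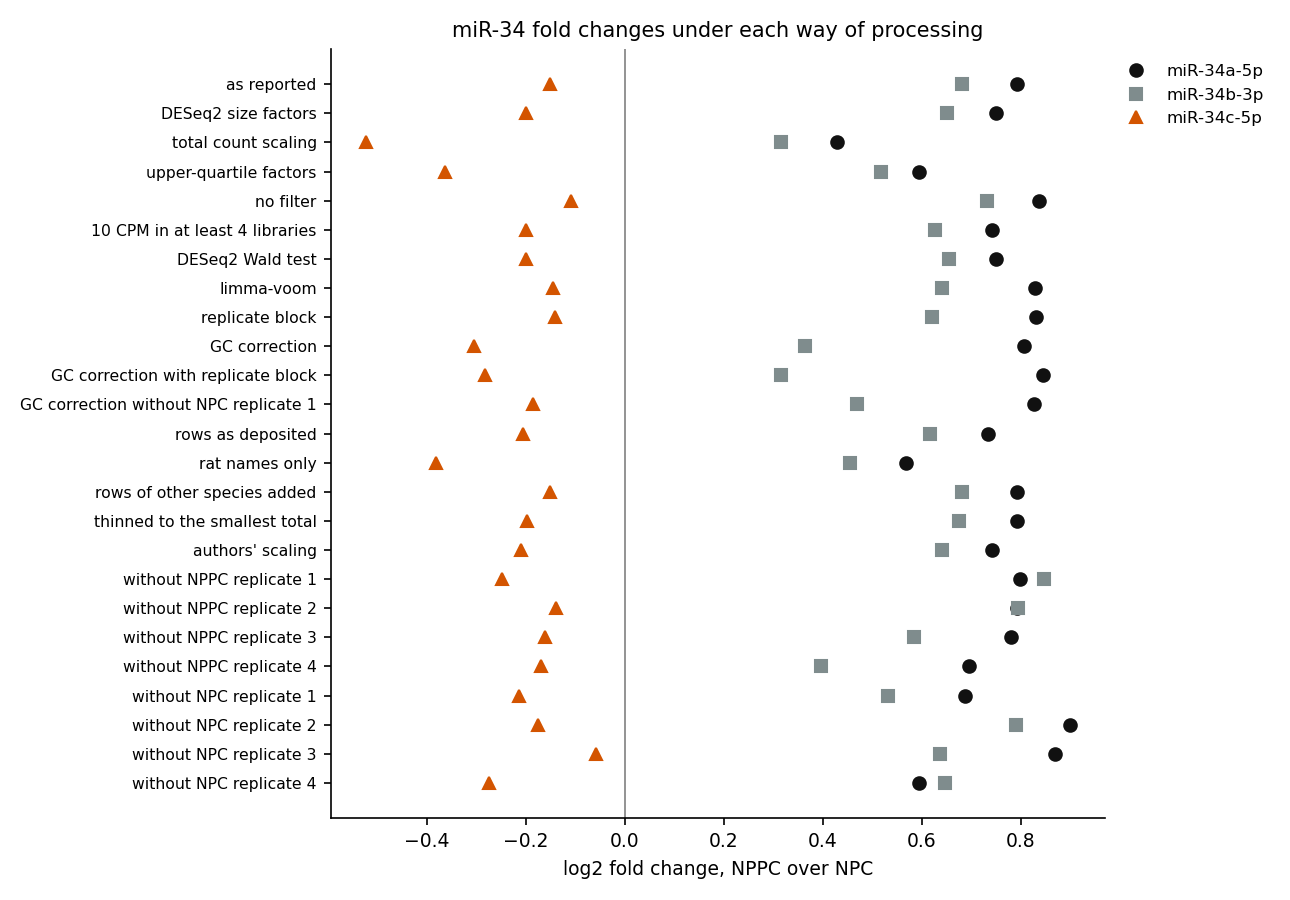
Log2 fold change of NPPC over NPC (horizontal axis) for miR-34a-5p, miR-34b-3p and miR-34c-5p as reported and under 24 other ways of processing (vertical axis). miR-34a-5p stays between 0.43 and 0.90 and miR-34c-5p between -0.52 and -0.06, with the lowest value of each under total count scaling.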

How the data were processed

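Small RNA of exosomes was isolated with a kit for exosome RNA and made into Illumina TruSeq small RNA libraries, per the labels' protocols. The submitters' processing notes list CASAVA 1.8. For the aligner, the miRBase release and the build, a version was not given in the sources used here. Estimated counts per miRNA were deposited by the authors, of which 82.3% of values above 0 were whole, and a signal column holding the same counts times 1 factor per library. All values of the members were whole.

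Rows with rat names were summed per mature name, other rows were kept, and sums were rounded, giving 1472 features. After filterByExpr, 444 features were fitted with edgeR 4.0.16 (R 4.3.3), using TMM scaling and no term but group, and the two-sided quasi-likelihood p-values were adjusted by Benjamini-Hochberg. Library ratios were compared by two-sided exact permutation over 70 arrangements in Python 3.11.15 with numpy 2.4.6, scipy 1.17.1 and pandas 2.3.3. Log2 CPM profiles used a prior count of 2. Alternatives used DESeq2 1.42.0 and limma 3.58.1, and the authors' own scaling factors were added as an alternative after the data were seen. Figures were drawn with matplotlib 3.10.9. The main edgeR fit was checked on simulated counts without a GC shift. The other tests were not checked in this way. Totals of 329011 to 1416940 counts set the precision.

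The members and lists were chosen with earlier results of these data known. Named miRNAs are the members, the listed p53-linked and marker miRNAs, the 3 nearest profiles of each tested member, and features with a member's name, sequence or seed. Some rows of other species with the name of a listed miRNA are given beside it. Sequences come from RefSeq (GRCr8), whose coordinates were not mixed with those of the deposited table.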

Additional observations from a re-analysis of the deposited data

Results flagged for a closer look

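Of 60 groups of 4 libraries checked with Dixon's test at the 95% level, 7 had a library standing apart. Chance gives about 1 in 20 only for independent groups of normally spread values, and several groups here share the same counts. A group with 3 values at 0, as both groups of miR-34b-5p, is flagged whatever its remaining value above 0. miR-34b-5p was at 12.6 CPM in NPPC replicate 1 and at 11.0 CPM in NPC replicate 4, and listed at 0 in the other 3 libraries of each group. The log2 ratio of miR-34c-3p to miR-34c-5p was -12.20 in NPPC replicate 1, where miR-34c-3p was listed at 0, and -6.86 to -6.11 in the remaining NPPC libraries. All 5 members together, without TMM scaling, were at 3255 CPM in NPPC replicate 1, where the remaining NPPC libraries had 2281 to 2447 CPM. miR-34a-5p, miR-34b-3p and miR-34c-5p, and the ratio of miR-34a-5p to 34b/c, had no such library. Among p53-linked miRNAs, miR-192-5p was at 646 CPM in NPC replicate 3, where the remaining NPC libraries had 142 to 189 CPM. miR-22-3p was at 19685 CPM in NPPC replicate 1, above 16131 to 16730 CPM in the remaining NPPC libraries. miR-25-3p was at 4986 CPM in NPC replicate 1, the library that also stood apart in scaling, and at 4231 to 4298 CPM in the remaining NPC libraries.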

How the results depend on the processing

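No member was called under any of 24 alternatives, and no member's log2 fold change turned sign. miR-34a-5p ranged from 0.43 to 0.90 with edgeR, DESeq2 or limma adjusted p from 0.0601 to 0.598, and its unadjusted p was under 0.05 in 22 of 24. miR-34b-3p ranged from 0.32 to 0.85, miR-34c-5p from -0.52 to -0.06 and miR-34c-3p from 0.18 to 1.02. The difference in the ratio of miR-34a-5p to 34b/c stayed between 0.92 and 0.97 with other pseudocounts, other strands or rows of other species added. Using the rows as deposited could not change it, since each member had 1 row. Leaving out 1 library gave 0.86 to 1.08, each with an exact permutation p of 0.0571, the smallest that 4 against 3 allows. The labels do not say whether equal library numbers mark paired samples. Deviations of same-numbered libraries correlated at 0.574, 0.156, 0.221 and 0.0399, and only the replicate 1 libraries correlated best with their own number. These correlations cannot settle pairing, since NPC replicate 1 stood apart in scaling and GC content. With the replicate block the ratio difference was 0.95 with an exact sign-flip p of 0.125, the smallest 4 pairs allow, and edgeR called 0 features, with 70 at an unadjusted p under 0.05. 1 p53-linked miRNA, miR-16-5p, was called by DESeq2's Wald test. Log2 fold changes turned sign as follows, and the cause was not tested. Total count scaling gave miR-125b-5p -0.17, miR-145-5p -0.0063, miR-22-3p -0.33 and miR-30d-5p -0.24. Upper-quartile factors gave miR-22-3p -0.17 and miR-30d-5p -0.069. Rat names only gave miR-125b-5p -0.011, miR-22-3p -0.16 and miR-30d-5p -0.071. miR-22-3p was -0.31 with GC correction, -0.22 with GC correction and the block, and -0.037 thinned. miR-200c-3p was 0.046 unfiltered, 0.29 with limma-voom, 0.054 with the block and 0.40 without NPPC replicate 1, and ranged from -0.44 to 1.07 with 1 library left out. miR-25-3p was 0.014 unfiltered and 0.14 with GC correction without NPC replicate 1. With 1 library left out, miR-143-3p ranged from -0.29 to 0.0032 (without NPC replicate 2), miR-192-5p from -0.87 to 0.093 and miR-194-5p from -0.41 to 0.30 (both without NPC replicate 3), and miR-22-3p from -0.019 to 0.18, below 0 without NPC replicate 3 or 4. Thinning left miR-34c-3p untested, and miR-34b-5p was tested only without a filter.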

Other observations

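The passenger strand of the 34a locus, miR-34a-3p, had 13 counts in NPC replicate 4 and was listed at 0 in the other 7 libraries. The table also held 2 rows named after an opossum miR-34b-5p. One of them, placed by the table on the rat miR-34c hairpin, had 6, 8.5, 7 and 9 counts in NPPC and 7, 0, 12 and 0 counts in NPC. Its sequence differed from mature miR-34c-5p by 1 additional 5′ base. The second had 6, 2.5, 0 and 0 counts in NPPC and 0, 0, 6 and 0 counts in NPC, and differed from miR-34c-5p by C23U and from miR-34b-5p by A11G, with positions counted from the 5′ end of the rat strand. Adding both to miR-34b-5p left it below the expression filter.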
